A study of Mus musculus with 15 samples.

Results

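The nuclear genes that encode the respiratory chain and the ATP synthase were followed in whole cornea of OPA1+/- and OPA1+/+ mice. Members were chosen by name, as genes whose symbol begins with the names of the NADH dehydrogenase (Nduf), succinate dehydrogenase (Sdh), cytochrome bc1 (Uqcr and Cyc1), cytochrome c oxidase (Cox4 to Cox8) and ATP synthase (Atp5) subunits. Ndufa4l2 and pseudogenes marked as such were left out, and a member needed at least 10 counts in at least 3 of the 15 libraries. This gave 79 genes of 55357 gene identifiers. Complex I had 35 members, complex II 4, complex III 9, complex IV 14, with Ndufa4 placed there, and complex V 17. Another 10 genes matched by name but not by count.

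Mouse corneas were profiled as total RNA depleted of ribosomal RNA, in 4 OPA1+/- and 4 OPA1+/+ libraries at 3 months and in 4 OPA1+/- and 3 OPA1+/+ libraries at 6 months. OPA1+/- denotes mice with 1 mutant copy of Opa1, a gene for a GTPase of the inner mitochondrial membrane that fuses mitochondria and shapes cristae. The series title places the work in inherited mitochondrial dysfunction and corneal sensory innervation. The labels do not describe the mutant allele, nor say how many animals gave each library.

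The respiratory chain sits in the inner mitochondrial membrane. Complex I takes electrons from NADH and complex II takes them from succinate, ubiquinone carries them to complex III, and cytochrome c carries them to complex IV, which reduces oxygen. Complexes I, III and IV pump protons, and complex V, the ATP synthase, uses the returning protons to make ATP. Most subunits are encoded in the nucleus, and a small core of complexes I, III, IV and V is encoded in mitochondrial DNA (mtDNA). Loss of OPA1 in humans is best known from dominant optic atrophy, a disease of retinal ganglion cells. In the cornea the endothelium, which pumps fluid out of the stroma, is known for its many mitochondria.

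Libraries held 11673240 to 18194946 counts, and the members took 0.3696% to 0.4057% of them. Opa1 was at 57.7, 49.98, 45.4 and 50.4 CPM (counts scaled to a library total of 1e6) in OPA1+/- corneas at 3 months, against 70.2, 65.1, 69.0 and 66.4 CPM in OPA1+/+ corneas. At 6 months it was at 47.0, 49.1, 46.9 and 48.4 CPM in OPA1+/- corneas, against 67.4, 66.8 and 73.3 CPM in OPA1+/+ corneas. The genotypes did not overlap at either age, and Opa1 was 0.41 ± 0.06 lower on the log2 scale in OPA1+/- at 3 months (SE, adjusted p = 0.0193) and 0.53 ± 0.06 lower at 6 months (adjusted p = 0.000623, edgeR's quasi-likelihood test with Benjamini-Hochberg adjustment). Without replicate 2, 3 or 4 of OPA1+/- or replicate 1 of OPA1+/+ at 3 months, or without the libraries with rod transcripts named next, the 3-month log2 fold change was -0.41 to -0.37 and missed the threshold (adjusted p 0.0557 to 0.141). The 6 markers of corneal epithelium, which include Krt12, summed to 60780 to 72880 CPM, and all were tested. Rod photoreceptor markers stood apart in a pair of libraries, OPA1+/- at 3 months replicate 4 (153.9 CPM summed over 8 genes) and OPA1+/+ at 6 months replicate 1 (147.2 CPM), against 10.2 to 23.0 CPM in the others. The calls of Opa1, Ndufa4l2, the isoform ratios, Egln3 and Car9 were also computed without those libraries. A value is given where such a call was lost.

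Members spanned a 226-fold range of mean level per kilobase of exon, but most varied little from library to library. Complex IV had both ends of the range. Ndufa4, a small subunit first assigned to complex I, was highest at 111.3 CPM per kb (range over 15 libraries 90.4 to 124.3), followed by Cox6b1, an intermembrane-space subunit, at 101.4 CPM per kb (91.7 to 119.5). These ranges overlapped, so the order of the leading genes is not separated by the spread. Atp5b, the catalytic beta subunit of complex V, was at 101.3 CPM per kb (94.4 to 106.5). Cox6b2, known as the testis form of Cox6b1, was lowest at 0.494 CPM per kb (0.141 to 0.785).

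In the other complexes the highest and lowest members lay closer together. Complex I ran from Ndufa8 at 45.3 CPM per kb to Ndufb2, an accessory subunit, at 1.77 CPM per kb. Complex II ran from Sdha, the flavoprotein that oxidises succinate, at 31.1 to Sdhc, a membrane anchor, at 7.32 CPM per kb. Complex III ran from Uqcrb at 49.1 to Uqcrq at 14.45 CPM per kb, and complex V from Atp5b to Atp5l, the membrane subunit g, at 1.52 CPM per kb. The median level was 19.7, 27.03, 35.1, 40.1 and 20.5 CPM per kb for complexes I to V in order.

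**Figure D1:**
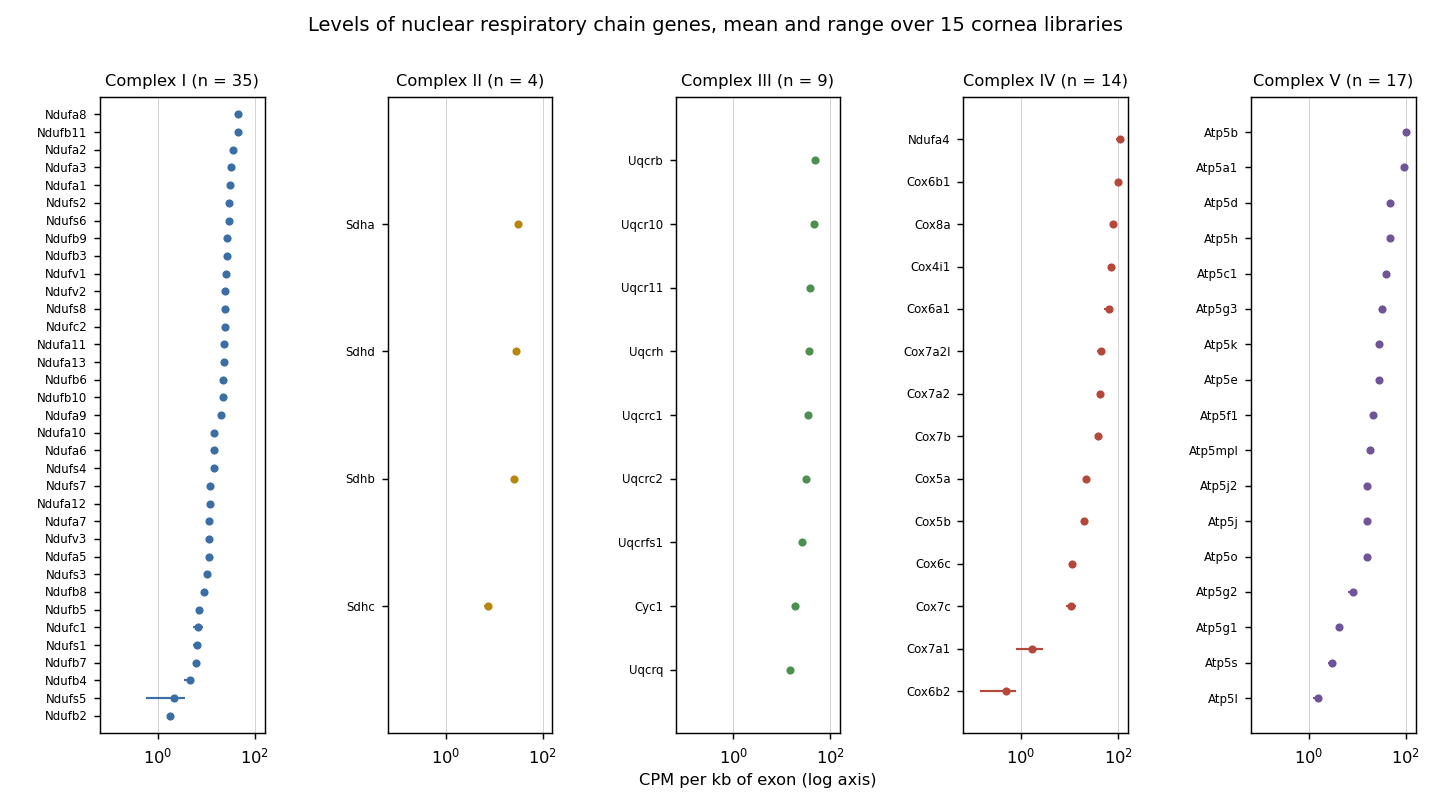
Level of each of the 79 members in CPM per kb of exon on a log axis, by complex. Points are means over 15 libraries and lines run from the lowest to the highest library. Most lines are hidden by their points, and only Ndufs5, Cox7a1 and Cox6b2 have long ones.

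The coefficient of variation over the 15 libraries had a median of 6.46% and was under 10% for 68 members. It was over 20% for 3, namely Ndufs5, Cox7a1 and Cox6b2, which had 9 to 39, 5 to 22 and 2 to 13 counts per library. Cox6b2 was the member just inside the count minimum, with at least 10 counts in 4 libraries, and Cox4i2, with 0 to 9 counts, was the nearest gene outside it. Per-kilobase levels rest on the length of all annotated exons of a gene, which for Atp5l was 6443 bases, so a long annotated exon that is little used lowers the value. The counting command in the file headers does not ask for reads with several alignments, but how the aligner had reported them is not stated. The genes that matched by name included processed pseudogene copies of Ndufa11, Ndufb4, Ndufs6 and Cox6c, so the counts of these members are uncertain. Copies under other names were not searched for, so the other members are not shown to be free of them. For Ndufb9 and Atp5o, 19.5% and 12.3% of exon bases were shared with another gene on the same strand, and 74 members shared none.

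Genes that supply the same position in a complex differed in level, and the promoters of a pair and a triplet of them are shown for that reason. Cox8a and Cox8b encode alternative forms of subunit 8, with Cox8b known as the heart and muscle form. Cox8a had 536 to 936 counts per library, whereas Cox8b had 0 or 1. Atp5g1, Atp5g2 and Atp5g3 encode the same mature subunit c of the ATP synthase rotor with different import sequences. Atp5g3 was highest at 32.02 CPM per kb (29.2 to 36.1), Atp5g2 was at 7.92 (6.34 to 9.67) and Atp5g1 at 4.24 (3.72 to 4.81), with no overlap between them over the 15 libraries.

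The sequences below run 5′ to 3′ from 250 bases before to 50 after the annotated start, from RefSeq on build GRCm38.p6. Capitals mark matches, on either strand, to 4 motifs linked to respiratory genes, written as GCGCA, any base and GCGC for NRF1, CCGGAAG for the ETS family that includes GABP, TNAAGGTCA for the estrogen-related receptors (ERR) and AAGATGGC for YY1. Cox8a lies at chr19:7217567-7217866, Cox8b at chr7:140900397-140900696, Atp5g1 at chr11:96075582-96075881, Atp5g2 at chr15:102670998-102671297 and Atp5g3 at chr2:73911277-73911576, all on the minus strand.
Cox8a: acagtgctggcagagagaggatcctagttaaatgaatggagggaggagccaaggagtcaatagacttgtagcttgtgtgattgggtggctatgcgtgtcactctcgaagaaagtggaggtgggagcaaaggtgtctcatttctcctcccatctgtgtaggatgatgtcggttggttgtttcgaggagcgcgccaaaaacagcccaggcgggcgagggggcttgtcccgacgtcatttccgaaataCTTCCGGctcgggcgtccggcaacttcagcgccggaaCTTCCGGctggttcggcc
Cox8b: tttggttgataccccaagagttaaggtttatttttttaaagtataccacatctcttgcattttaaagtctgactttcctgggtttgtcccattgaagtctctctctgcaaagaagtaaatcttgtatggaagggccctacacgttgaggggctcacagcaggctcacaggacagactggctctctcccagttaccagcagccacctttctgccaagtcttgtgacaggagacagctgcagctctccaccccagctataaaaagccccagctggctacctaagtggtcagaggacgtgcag
Atp5g1: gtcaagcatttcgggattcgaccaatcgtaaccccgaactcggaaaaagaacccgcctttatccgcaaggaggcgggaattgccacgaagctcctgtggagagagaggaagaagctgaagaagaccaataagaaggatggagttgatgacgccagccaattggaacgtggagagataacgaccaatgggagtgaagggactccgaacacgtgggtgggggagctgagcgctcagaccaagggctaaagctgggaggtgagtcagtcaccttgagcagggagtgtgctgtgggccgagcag
Atp5g2: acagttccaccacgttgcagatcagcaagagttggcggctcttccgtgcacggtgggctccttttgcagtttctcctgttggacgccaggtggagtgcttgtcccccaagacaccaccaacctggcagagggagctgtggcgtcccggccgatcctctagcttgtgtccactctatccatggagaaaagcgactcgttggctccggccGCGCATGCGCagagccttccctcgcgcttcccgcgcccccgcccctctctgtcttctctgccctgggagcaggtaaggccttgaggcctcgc
Atp5g3: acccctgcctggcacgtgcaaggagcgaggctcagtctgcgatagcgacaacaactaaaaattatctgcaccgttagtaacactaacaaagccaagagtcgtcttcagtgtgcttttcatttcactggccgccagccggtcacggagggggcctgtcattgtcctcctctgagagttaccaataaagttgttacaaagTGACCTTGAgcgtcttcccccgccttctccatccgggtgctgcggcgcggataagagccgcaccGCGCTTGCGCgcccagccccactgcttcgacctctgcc

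Cox8a held 2 ETS matches, and no match lay in the window of Cox8b. Atp5g2 held 1 NRF1 match and Atp5g3 held 1 NRF1 and 1 ERR match, while the window of Atp5g1 held none of these letters. Of the 64 members with a promoter in the RefSeq table, 26.6% held the NRF1 letters, against 5.19% of 27025 genes of all kinds and 7.17% of 17491 protein-coding genes. The ETS letters were in 25.0% of members, against 9.93% of all and 12.9% of coding genes. The YY1 letters were in 14.1% of members, against 3.19% and 3.57%, and the ERR letters in 4.69% of members, against 1.43% and 1.19%. Ndufb4, Sdhd and Atp5g3 were the members with ERR letters. No matches overlapped in the sequences shown, and a match describes these letters alone.

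The first question was whether mRNA of the respiratory chain differed between OPA1+/- and OPA1+/+ corneas. No member passed the test at either age. Of 78 members tested (Cox6b2 fell below the count filter of the test), 0 were called at 3 months, where 0.00634% of all 15770 genes were called, and 0 at 6 months, where 0.323% were called. With both ages averaged, 0 members were called and 0.793% of all genes. At an unadjusted p under 0.05 there were 5 members at 3 months, 6 at 6 months and 7 on average, of 1424, 1614 and 1958 genes. DESeq2 and limma voom also called 0 members in each of these comparisons. The p-values measure the spread between these libraries, which the labels do not tie to separate animals. In bulk tissue, fewer cells of a type and less RNA per cell cannot be told apart.

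The intervals were narrow. The 95% interval of the log2 fold change lay within 0.5 of 0 for 76 of 78 members at 3 months and at 6 months, against 67.7% and 64.7% of all tested genes, and the exceptions were the low-count members Ndufs5 and Cox7a1. Within 0.3 of 0 there were 71 members at 3 months and 62 at 6 months. The median log2 fold change of the members was 0.02 at 3 months and 0.05 at 6 months, with values above 0 for 48 and 51 of 78, against 50.9% and 50.7% of all genes. At 6 months, 6 of 17 clock genes were called higher in OPA1+/- corneas and 0 lower, whereas Arntl, Npas2 and Clock had -1.26 ± 0.30, -0.90 ± 0.21 and -0.29 ± 0.08 without overlap (adjusted p = 0.126, 0.0898 and 0.128, edgeR). With the clock genes' first 2 principal components as covariates, the members' median at 6 months was -0.03. The first component did not overlap between genotypes at that age, with OPA1+/- libraries between -1.36 and -0.13 and OPA1+/+ libraries between 1.72 and 2.42, so genotype and this component can hardly be told apart at 6 months. With these covariates edgeR called 0 genes of the whole table there (471 at an unadjusted p under 0.05).

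**Figure D2:**
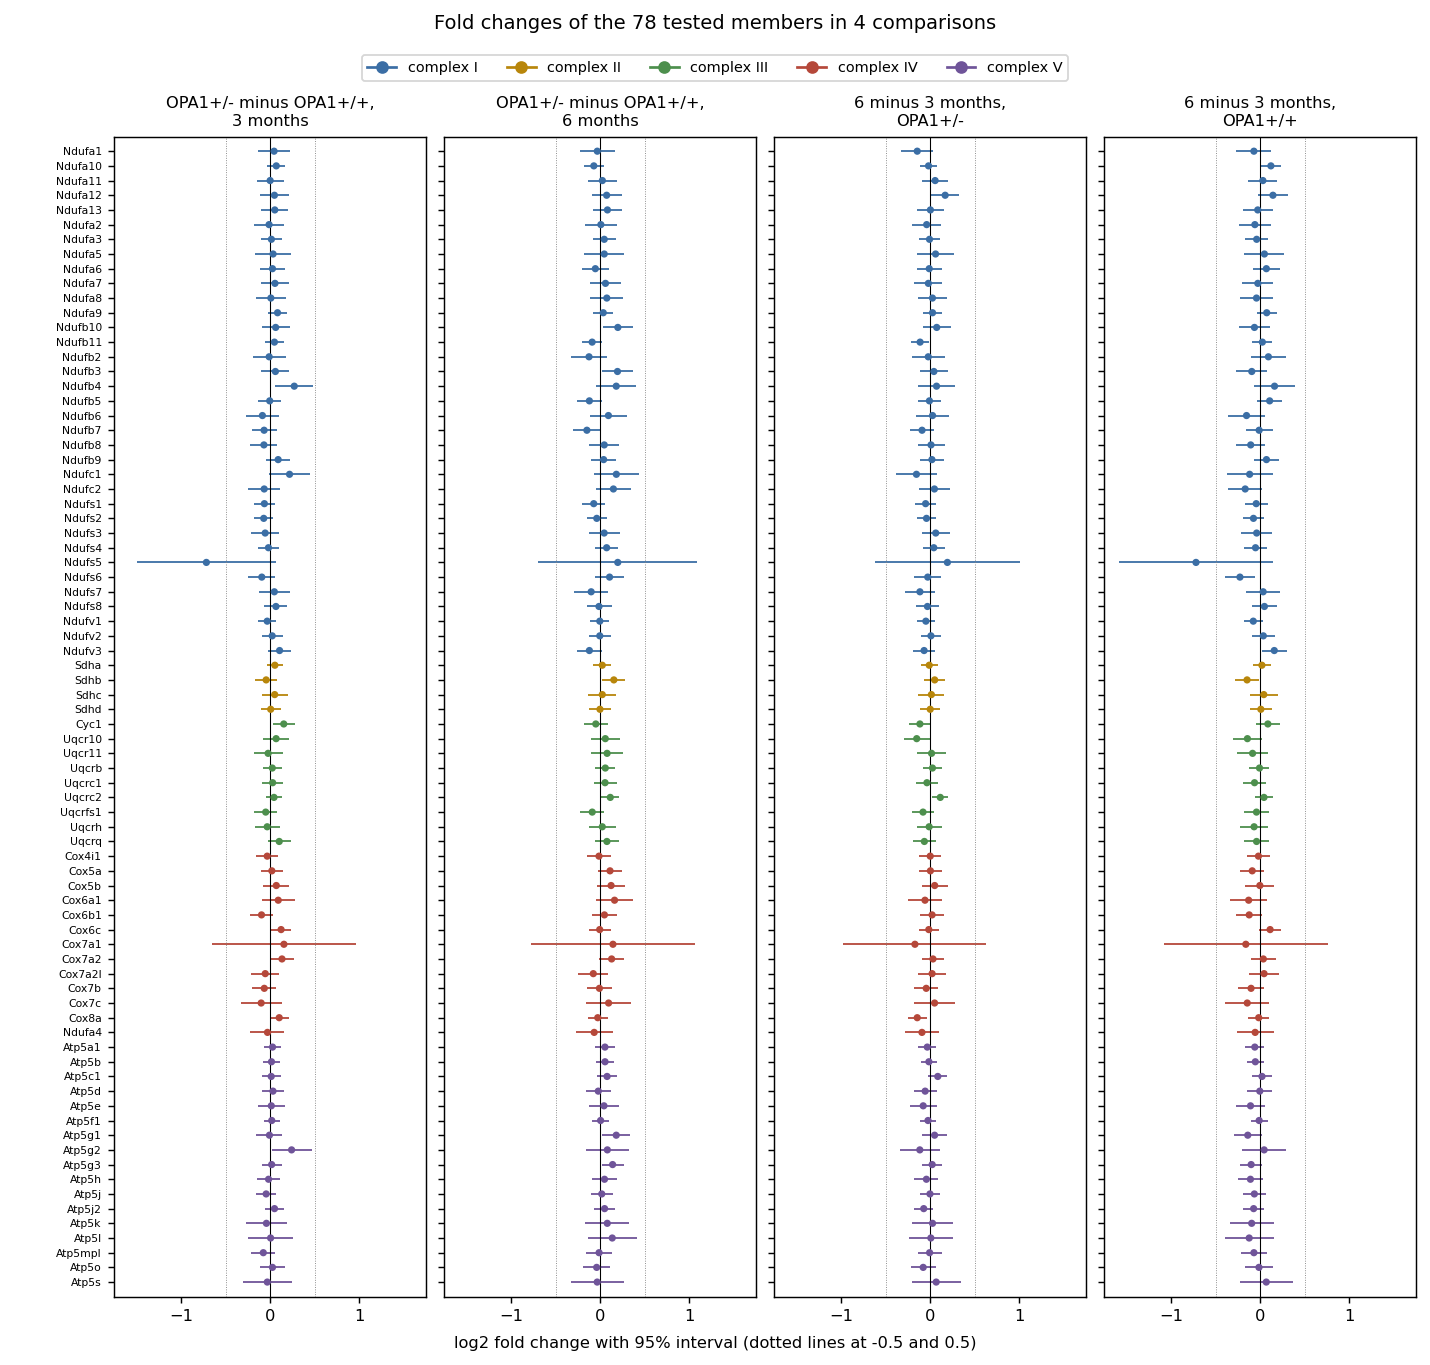
Log2 fold change and 95% interval of each of the 78 tested members, for OPA1+/- minus OPA1+/+ at 3 and 6 months and for 6 minus 3 months within OPA1+/- and OPA1+/+. Points sit near 0 in all panels, and the long lines are Ndufs5 and Cox7a1.

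Groups of libraries that did not overlap were counted as a second description. At 3 months, 4 members were higher in every OPA1+/- library than in every OPA1+/+ library (Ndufa9, Cyc1, Cox6c and Atp5g2) and 0 were lower, where 2.66% and 1.95% of all genes did so. At 6 months, 9 were higher (Ndufb4, Sdhb, Uqcrc2, Cox7a2, Cox5a, Atp5g3, Atp5g1, Atp5c1 and Atp5b) and 2 lower (Ndufb5 and Ndufb11), where the shares of all genes were 5.71% and 5.62%. No member did so in the same direction at both ages.

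In complex I, the member with the smallest p at 3 months was Ndufb4, an accessory subunit of the membrane arm encoded at chr16:37467532-37474815 (GRCm39, minus strand). It was at 8.55, 9.48, 9.93 and 9.26 CPM in OPA1+/- corneas, against 8.01, 8.91, 7.15 and 6.64 CPM in OPA1+/+ corneas. One OPA1+/- library lay below the highest OPA1+/+ library, and the log2 fold change was 0.27 ± 0.10 (adjusted p = 0.429). At 6 months Ndufb4 was at 10.1, 10.1, 9.83 and 9.14 CPM in OPA1+/- corneas, against 8.65, 8.27 and 8.93 CPM in OPA1+/+ corneas. Here the genotypes did not overlap, and the log2 fold change was 0.18 ± 0.11 (adjusted p = 0.600). Over both ages it was 0.23 ± 0.07 (adjusted p = 0.164), the smallest adjusted p of any member in the 7 comparisons.

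At 6 months the smallest p in complex I was that of Ndufb10, another accessory subunit of the membrane arm (chr17:24941034-24943452, minus strand). It was at 28.8, 25.2, 30.4 and 30.9 CPM in OPA1+/- corneas, against 25.1, 25.8 and 24.3 CPM in OPA1+/+ corneas. The groups overlapped, and the log2 fold change was 0.20 ± 0.08 (adjusted p = 0.400). With the clock covariates the value was -0.15. Ndufs5, an accessory subunit, had the most negative fold change of complex I at 3 months, at -0.72 ± 0.37 (adjusted p = 0.600). It was at 2.59, 1.61, 1.41 and 0.493 CPM in OPA1+/- corneas, against 2.36, 1.67, 3.06 and 2.81 CPM in OPA1+/+ corneas, and the lowest value was that of replicate 4, a library with rod transcripts.

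In complex II the 4 members had fold changes at 3 months between -0.04 and 0.05 on the log2 scale. At 6 months Sdhb, the iron-sulfur subunit (chr4:140688514-140706504, plus strand), was at 62.2, 60.6, 60.1 and 58.4 CPM in OPA1+/- corneas, against 56.8, 54.0 and 51.8 CPM in OPA1+/+ corneas. All OPA1+/- libraries lay above all OPA1+/+ libraries, by 0.15 ± 0.06 on the log2 scale (adjusted p = 0.390). The same gene at 3 months was at 64.6, 57.6, 55.9 and 54.5 CPM in OPA1+/- corneas, against 58.2, 57.1, 59.1 and 65.6 CPM in OPA1+/+ corneas, fully interleaved. Sdha had the smallest p of complex II at 3 months, at 0.05 ± 0.05 on the log2 scale (adjusted p = 0.756).

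In complex III the gene with the smallest p differed between ages. Cyc1, cytochrome c1, which passes electrons to cytochrome c (chr15:76227723-76230460, plus strand), was at 40.4, 43.4, 41.9 and 41.4 CPM in OPA1+/- corneas at 3 months, against 35.9, 38.8, 39.8 and 35.6 CPM in OPA1+/+ corneas. These groups did not overlap, and the log2 fold change was 0.15 ± 0.06 (adjusted p = 0.449). At 6 months it was -0.05 ± 0.06 (adjusted p = 0.866), with overlapping groups. Uqcrc2, a core protein of the complex (chr7:120234399-120258747, plus strand), was at 85.8, 86.0, 87.2 and 83.8 CPM in OPA1+/- corneas at 6 months, against 75.7, 80.1 and 81.6 CPM in OPA1+/+ corneas. The log2 fold change was 0.11 ± 0.05 without overlap (adjusted p = 0.401), and 0.04 ± 0.04 at 3 months with overlap (adjusted p = 0.802).

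In complex IV, Cox6c, a small structural subunit, was at 39.6, 41.8, 44.7 and 40.8 CPM in OPA1+/- corneas at 3 months, against 39.0, 38.9, 36.1 and 39.1 CPM in OPA1+/+ corneas. The groups did not overlap, and the log2 fold change was 0.12 ± 0.06 (adjusted p = 0.518). Cox7a2, the common form of subunit 7A (chr9:79662643-79667160, minus strand), was at 42.6, 43.8, 43.1 and 39.4 CPM in OPA1+/- corneas at 6 months, against 38.4, 38.5 and 38.9 CPM in OPA1+/+ corneas. It gave 0.13 ± 0.07 on the log2 scale without overlap (adjusted p = 0.533), and 0.13 ± 0.06 at 3 months with overlap (adjusted p = 0.538). Cox4i1, the common form of subunit 4, was at -0.03 ± 0.06 at 3 months and -0.01 ± 0.06 at 6 months on the log2 scale (adjusted p = 0.917 and 0.974).

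In complex V, the subunit c genes had the smallest p at each age. Atp5g2 was at 14.1, 14.4, 16.2 and 13.6 CPM in OPA1+/- corneas at 3 months, against 12.2, 13.6, 12.5 and 10.8 CPM in OPA1+/+ corneas. The nearest libraries were 13.59 CPM in OPA1+/- and 13.55 CPM in OPA1+/+, so the groups met without overlapping, and the log2 fold change was 0.24 ± 0.11 (adjusted p = 0.518). Atp5g3 was at 71.7, 70.7, 73.6 and 72.2 CPM in OPA1+/- corneas at 6 months, against 66.0, 66.1 and 63.7 CPM in OPA1+/+ corneas. Its log2 fold change was 0.14 ± 0.06 (adjusted p = 0.400), and that at 3 months was 0.02 ± 0.05 (adjusted p = 0.956). Atp5b was at 0.02 ± 0.04 and 0.06 ± 0.05 at 3 and 6 months (adjusted p = 0.947 and 0.746).

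**Figure D3:**
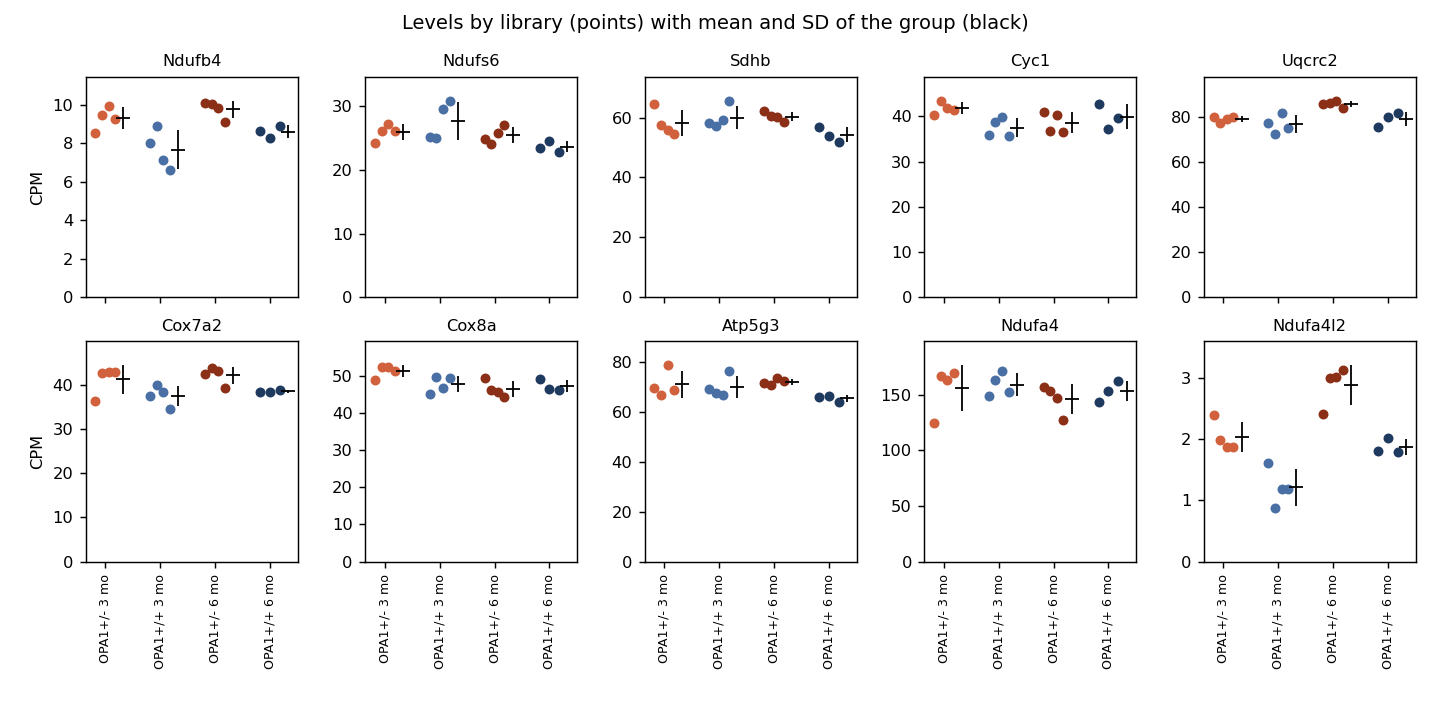
CPM in each library of 9 members and of Ndufa4l2, which is outside the member list, in OPA1+/- and OPA1+/+ corneas at 3 and at 6 months. Points are libraries and black marks are the group mean and SD, with axes that start at 0. The members' groups lie close together relative to their level, and Ndufa4l2 is higher in OPA1+/- at both ages.

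The second question was whether the chain differed between 6 and 3 months. No member was called in OPA1+/-, where 0.0824% of all genes were called, in OPA1+/+, where 0.0507% were called, or with genotypes averaged, where 0.412% were called. Unadjusted p-values under 0.05 were found for 5, 4 and 5 members, of 1427, 1602 and 1874 genes, and DESeq2 and limma voom called 0 members. The members' median log2 fold change was -0.01 in OPA1+/- and -0.04 in OPA1+/+, with 42 and 52 of 78 members below 0. Values were above 0 for 36 and 26 members, against 49.8% and 50.3% of all genes. In OPA1+/+ the median was -0.01 without replicate 4 at 3 months, with 44 members below 0. With clock covariates it was 0.02, with 34 members below 0. Non-overlapping libraries at 6 months were higher than at 3 months for 3 members and lower for 1 in OPA1+/- corneas, where 2.9% and 3.14% of all genes did so. In OPA1+/+ corneas the counts were 1 higher and 4 lower, where the shares of all genes were 4.44% and 3.7%.

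In OPA1+/- corneas the member with the smallest p was Cox8a, the common form of subunit 8 (GRCm39 chr19:7192518-7194981, minus strand). It was at 49.5, 46.3, 45.55 and 44.4 CPM at 6 months, against 49.0, 52.4, 52.5 and 51.3 CPM at 3 months. A single library of each age overlapped, and the log2 fold change was -0.14 ± 0.05 (adjusted p = 0.397). Uqcrc2, whose 6-month values in OPA1+/- are given above, was at 80.0, 77.4, 79.2 and 79.9 CPM at 3 months, all below the libraries at 6 months, with 0.11 ± 0.04 (adjusted p = 0.436). Ndufa12, an accessory subunit of complex I, had 0.17 ± 0.07 without overlap (adjusted p = 0.515). Atp5c1, the central stalk subunit gamma, had 0.09 ± 0.05 without overlap (adjusted p = 0.636).

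In OPA1+/+ corneas the smallest p was that of Ndufs6, a zinc-binding subunit of complex I (chr13:73467957-73476661, minus strand). It was at 23.5, 24.6 and 22.8 CPM at 6 months, against 25.2, 25.1, 29.6 and 30.9 CPM at 3 months. All libraries at 6 months lay below those at 3 months, with a log2 fold change of -0.23 ± 0.08 (adjusted p = 0.312). Sdhb had -0.15 ± 0.06 without overlap (adjusted p = 0.428), against 0.05 ± 0.06 with overlap in OPA1+/- (adjusted p = 0.835). Uqcr10, a small subunit of complex III, had -0.14 ± 0.08 and Cox6c 0.11 ± 0.06, both without overlap (adjusted p = 0.565 and 0.540). Atp5g1 had -0.14 ± 0.08 with overlap (adjusted p = 0.571), and with the clock covariates the value was 0.02.

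Whether the genotype difference itself changed with age was tested as an interaction. It called 0 members and 0% of all genes, and the unadjusted p was under 0.05 for 3 members of 1090 genes, with 0 members called by DESeq2 and by limma voom. The members were Ndufv3, a subunit of the NADH-binding module (-0.23 ± 0.09, adjusted p = 0.637), Sdhb (0.20 ± 0.09, adjusted p = 0.657) and Cyc1 (-0.20 ± 0.09, adjusted p = 0.676). Interaction values compare the fold change at 6 months with that at 3 months on the log2 scale. The 2 age comparisons of a gene share their libraries with its 2 genotype comparisons, so these values are not separate observations.

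Averaged over a complex, library differences were small beside those of the mtDNA-encoded subunits. The score of a library was the mean, over members with at least 10 counts in every library, of the difference between log2 CPM and that gene's 15-library mean. Over 76 members it ran from -0.055 in OPA1+/+ at 3 months replicate 1 to 0.075 in OPA1+/+ at 3 months replicate 4, a span of 9.5%. It averaged 0.019 ± 0.031 in OPA1+/- (SD, n = 4) and -0.004 ± 0.056 in OPA1+/+ (n = 4) at 3 months. At 6 months it averaged 0.007 ± 0.023 in OPA1+/- (n = 4) and -0.028 ± 0.015 in OPA1+/+ (n = 3). The groups overlapped at both ages. The spans of single complexes were 8.9% to 11.6%. Pairs of members correlated weakly over the 15 libraries, with a median Pearson r of 0.143 for 805 pairs in the same complex and 0.174 for 2045 pairs in different complexes, as a description of genes that share libraries.

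The mtDNA-encoded subunits, which are made inside the organelle and assembled with the members, had 7 of 13 genes tested. The others were listed at 0 to 2 counts in every library, which the files do not explain. None of the 7 was called in any comparison in the edgeR fit used throughout. For OPA1+/- minus OPA1+/+, 6 of 7 had fold changes below 0 at both ages, also under both other scalings. With single libraries left out 5 or 6 of 7 were below 0, and with clock covariates 5 of 7 were at 3 months and 1 of 7 at 6 months. For mt-Co1, the catalytic subunit of complex IV, the values at 6 months were 1081, 1125, 1150 and 960.6 CPM in OPA1+/- corneas, against 1333, 1282 and 1266 CPM in OPA1+/+ corneas, with no overlap. The log2 fold change was -0.26 ± 0.08 (adjusted p = 0.231). At 3 months mt-Nd6, the subunit encoded on the light strand, was at 57.6, 48.7, 51.15 and 45.5 CPM in OPA1+/- corneas, against 59.2, 64.2, 61.4 and 70.6 CPM in OPA1+/+ corneas, with -0.33 ± 0.08 (adjusted p = 0.213). Its interaction of genotype with age was 0.32 ± 0.12 (adjusted p = 0.623, edgeR), toward a smaller difference at 6 months. OPA1+/+ at 3 months replicate 4 had the highest member score and the lowest mtDNA score, -0.304, whereas the others of that group had 0.085 to 0.117. Without that library mt-Co1 was called, at -0.28 at 3 months (adjusted p = 0.0408) and -0.26 at 6 months (adjusted p = 0.0260), and no nuclear member was. At 3 months mt-Nd6 was called by the DESeq2 Wald test (adjusted p = 0.0390) and by edgeR with no filter on low counts (adjusted p = 0.0126). At 6 months mt-Co1 was called by edgeR in a fit of the 2 groups alone (adjusted p = 0.0359). Averaged over ages mt-Co1 had the smallest p of the 7, at -0.22 ± 0.06 (adjusted p = 0.0828, edgeR). There it was called by DESeq2 (-0.23, adjusted p = 0.01), limma voom (-0.23, 0.0398) and edgeR with the replicate number as a block (-0.19, 0.0459). Without OPA1+/+ at 3 months replicate 4 edgeR called mt-Co1 (-0.27, adjusted p = 0.000974) and mt-Nd5 (-0.21, 0.0226). With clock covariates edgeR called 0 genes in this comparison.

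**Figure D4:**
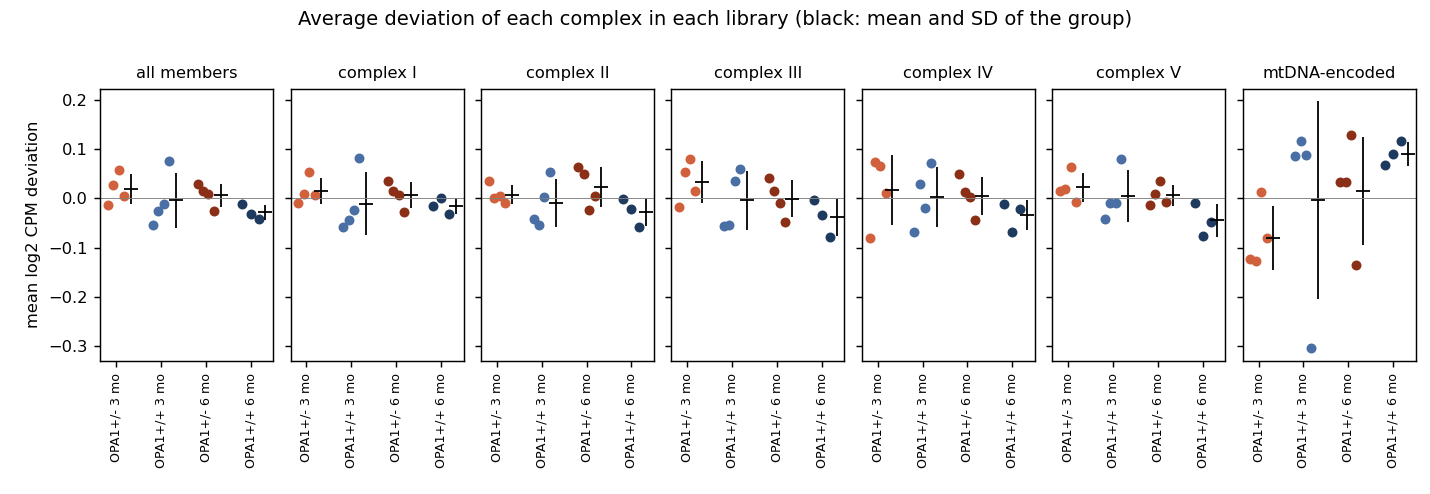
Mean log2 CPM deviation of each library from the 15-library mean, for all members with enough counts, each complex and the 7 mtDNA-encoded subunits. Points are libraries and black marks the group mean and SD. Nuclear scores stay between -0.08 and 0.082, whereas the mtDNA score runs from -0.304 to 0.129.

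Several tissue isoforms had hardly any counts, far below their common partners. Cox6a2, a heart and muscle form, had 0 counts in all libraries, against 435 to 876 counts for Cox6a1. In a single library a count of 0 allows up to 0.165 to 0.257 CPM (3 counts), a limit that covers counting error alone. Cox7b2 had 0 or 1 count, against 526 to 892 for Cox7b. The testis form Cox8c was at 0 or 1, as was Cox8b. Cox4i2, the form of subunit 4 known from lung and from low oxygen, had 55 counts over the 15 libraries together, against 21907 for Cox4i1. Skeletal muscle markers were low in all groups, at 18.1 to 28.1 CPM summed over 10 genes, of which 2 were tested.

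Of 10 isoform pairs, 6 had both genes counted well enough for a ratio, taken per kilobase with 0.5 added to each count. Cox7a1, the heart and muscle form of subunit 7A, was at 4.03% of Cox7a2, and its ratio differed by 0.05 on the log2 scale between OPA1+/- and OPA1+/+ (exact permutation p = 0.870, adjusted p = 0.994). Cox6b2 was at 0.523% of Cox6b1. Its log2 ratio averaged -7.77 ± 0.55 in OPA1+/- and -7.33 ± 0.45 in OPA1+/+ at 3 months, and -8.35 ± 0.70 in OPA1+/- and -7.24 ± 0.25 in OPA1+/+ at 6 months. These values rest on 2 to 13 counts of Cox6b2 per library. Their test is not given, because 1 OPA1+/- and 3 OPA1+/+ libraries had the 10 counts by which the gene passed the minimum. It remains among the 12 tests of the adjustment.

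Cox7a2l, which helps tie complexes III and IV into supercomplexes, was at 105% of Cox7a2, with a genotype difference of -0.19 in the log2 ratio (exact permutation p = 0.0469, adjusted p = 0.141). Atp5g1 was at 13.3% and Atp5g2 at 24.8% of Atp5g3. Their genotype differences were 0.01 and 0.08 (adjusted p = 0.994 and 0.923, exact permutation test), and their age differences -0.01 and -0.00 (both adjusted p = 0.994).

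The pair of Ndufa4 and Ndufa4l2 was the exception. Ndufa4l2 resembles Ndufa4, is known to be induced by HIF-1 in low oxygen and is not counted among the members. It was at 2.39, 1.99, 1.88 and 1.86 CPM in OPA1+/- corneas at 3 months, against 1.60, 0.870, 1.18 and 1.19 CPM in OPA1+/+ corneas. At 6 months it was at 2.41, 2.99, 3.01 and 3.12 CPM in OPA1+/- corneas, against 1.805, 2.01 and 1.79 CPM in OPA1+/+ corneas. The genotypes did not overlap at either age. Averaged over ages Ndufa4l2 was higher in OPA1+/- by 0.69 ± 0.14 on the log2 scale (adjusted p = 0.0309, edgeR's quasi-likelihood test). By the same test it was called at neither age alone (0.75 ± 0.21 at 3 months, adjusted p = 0.266). Over all 15 libraries it had between 12 and 42 counts per library.

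Ndufa4 itself was at 124.8, 166.5, 163.2 and 169.2 CPM in OPA1+/- corneas at 3 months, against 149.4, 162.9, 171.7 and 152.5 CPM in OPA1+/+ corneas. At 6 months it was at 157.4, 153.5, 147.6 and 127.1 CPM in OPA1+/- corneas, against 143.9, 153.7 and 162.1 CPM in OPA1+/+ corneas. The groups overlapped at both ages, with log2 fold changes of -0.03 ± 0.09 and -0.07 ± 0.10 (adjusted p = 0.956 and 0.883). The ratio of Ndufa4l2 to Ndufa4, 1.72% on average, was higher in OPA1+/- by 0.73 on the log2 scale (exact stratified permutation p = 0.00122, adjusted p = 0.0147) and higher at 6 than at 3 months by 0.64 (exact p = 0.00408, adjusted p = 0.0245). The rise of Ndufa4l2 was known from earlier results of these data, so the ratio is no independent evidence of it. For age, edgeR called Ndufa4l2 itself in none of the comparisons. It had 0.57 ± 0.15 averaged over genotypes (adjusted p = 0.0849) and 0.63 ± 0.23 in OPA1+/+ (adjusted p = 0.315).

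The edgeR call of Ndufa4l2 and the age difference of the ratio depended on single libraries. The genotype difference of the ratio kept its call with any single library left out. The call of Ndufa4l2 over both ages was lost with clock covariates (adjusted p = 0.998), without the libraries with rod transcripts (adjusted p = 0.106) and without any 1 of 9 libraries, with log2 values of 0.61 to 0.71 and adjusted p from 0.0511 to 0.0851. These 9 were replicates 1 and 2 of OPA1+/- and replicate 2 of OPA1+/+ at 3 months, and replicates 2, 3 and 4 of OPA1+/- and replicates 1, 2 and 3 of OPA1+/+ at 6 months. The age difference of the ratio lost its call without the libraries with rod transcripts (0.59, adjusted p = 0.0610) and without replicate 2, 3 or 4 of OPA1+/- at 6 months (0.64, 0.63 and 0.59, adjusted p = 0.0539 for each, exact permutation test). Mural cells are known to express Ndufa4l2. Their markers, 10 genes with 7 tested, had sums at 3 months of 644.4 to 723.7 CPM in OPA1+/- and 659.5 to 747.7 CPM in OPA1+/+. Sums at 6 months were 659.4 to 725.8 CPM in OPA1+/- and 743.8 to 788.3 CPM in OPA1+/+. At 6 months the sums did not overlap, but the tested markers went both ways, 4 of 7 above 0 and 3 below (median log2 fold change 0.02), and none was called at either age. They ran from -1.62 ± 0.57 for Rgs5, with overlap, to 0.38 ± 0.20 for Acta2, and Notch3 had -0.15 ± 0.05 without overlap (adjusted p = 0.287, 0.551 and 0.308, edgeR). The part of these cells in the Ndufa4l2 values was not tested.

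**Figure D5:**
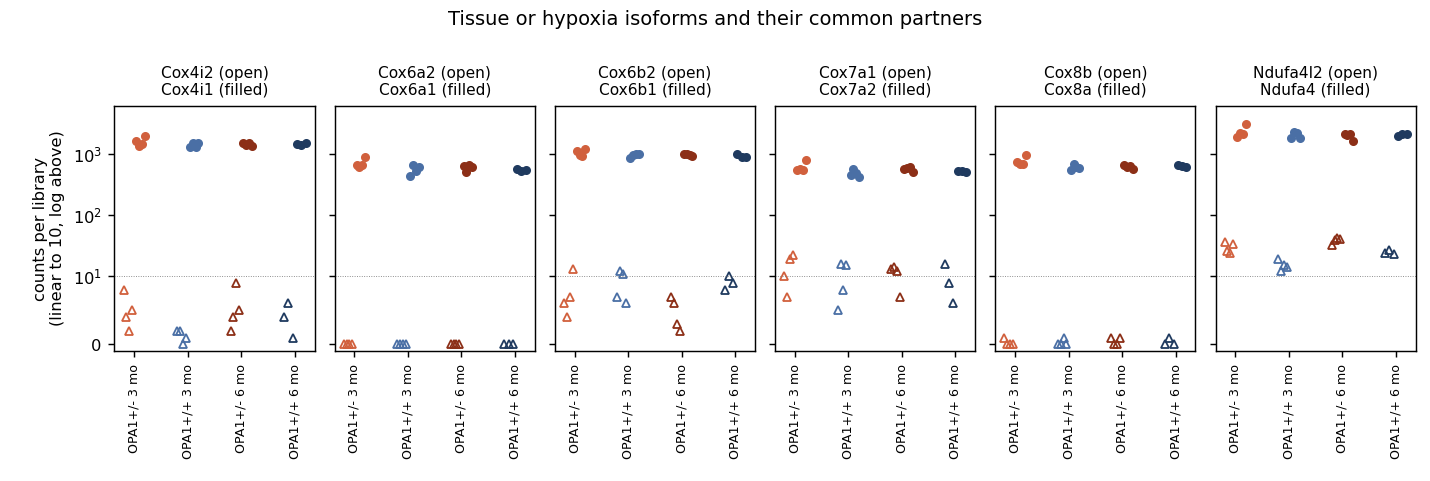
Counts per library of 6 isoform pairs in the 4 groups, with tissue or hypoxia forms as open triangles and common partners as filled circles, on an axis that is linear to 10 and logarithmic above. Common partners lie between 407 and 3089 counts, and the other forms between 0 and 42. The dotted line marks the minimum of 10 counts.

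Genes that build or regulate the complexes gave few calls. The assembly factor lists held 18 tested genes for complex I, 4 for II, 6 for III, 24 for IV and 7 for V. None of these genes was called in any of the 7 comparisons in the edgeR fit used throughout. Ttc19, a complex III factor, had the smallest p among them, for genotype at 6 months. It was at 23.7, 22.7, 25.8 and 24.3 CPM in OPA1+/- corneas, against 17.45, 20.05 and 19.2 CPM in OPA1+/+ corneas, without overlap (0.35 ± 0.08, adjusted p = 0.0740). It was called by the DESeq2 Wald test (adjusted p = 0.0261). By edgeR it was called with no filter (0.0366), in a fit of the 2 groups alone (0.0472) and without OPA1+/+ at 3 months replicate 4 (0.0375). Averaged over ages it was called by edgeR without that same library (0.23, adjusted p = 0.0325). None of 15 transcriptional regulators of respiratory genes, such as Nrf1, Gabpa and Esrra, was called, and none of 15 genes of cristae and of Opa1 processing, such as Mfn1 and Mfn2. Of 13 hypoxia responders, Egln3, a HIF prolyl hydroxylase, rose with age in OPA1+/+ (0.34 ± 0.06, adjusted p = 0.0429), and Car9, a carbonic anhydrase, rose with age averaged over genotypes (0.47 ± 0.09, adjusted p = 0.0336). None of the 13 was called between genotypes in the edgeR fit used throughout, but Bnip3 and Vegfa were under some other settings. At 3 months 9 of 13 were above 0 (median 0.19, range -0.15 to 1.43), where 50.9% of all genes were. At 6 months 7 of 13 were above 0 (median 0.007, range -0.18 to 0.78), where 50.7% of all genes were. The smallest p at 3 months was that of Bnip3, a mitophagy receptor. Bnip3 was at 3.71, 3.82, 3.60 and 3.51 CPM in OPA1+/- corneas at 3 months, against 1.60, 1.88, 2.04 and 1.36 CPM in OPA1+/+ corneas, without overlap (1.08 ± 0.25, adjusted p = 0.208). At 6 months it was at 3.99, 3.53, 2.80 and 1.95 CPM in OPA1+/- corneas, against 1.43, 3.65 and 2.33 CPM in OPA1+/+ corneas, with overlap (0.31 ± 0.26, adjusted p = 0.751). At 3 months it was called by the DESeq2 Wald test (adjusted p = 0.0482) and by edgeR with no filter (adjusted p = 0.00567). Averaged over ages Vegfa, an angiogenic factor, had the smallest p (0.63 ± 0.14, adjusted p = 0.0563), and it was called by DESeq2 (0.000909), by limma voom (0.0238), and by edgeR with upper-quartile factors (0.0472) or a mean of at least 1 CPM (0.0498). With single libraries left out, the Egln3 call was kept without replicate 1 of OPA1+/+ at either age, replicate 2 of OPA1+/- at 3 months, or replicate 1 or 4 of OPA1+/- at 6 months. It was lost without any of the 10 other libraries (adjusted p 0.0554 to 0.326), and also by limma voom (0.0537), with a mean of at least 1 CPM (0.0512), in a fit of the 2 groups alone (0.118) and with clock covariates (0.996). The Car9 call was lost without replicate 2 of OPA1+/+ at either age, replicate 2, 3 or 4 of OPA1+/- at 3 months, or replicate 1 or 4 of OPA1+/- at 6 months (adjusted p 0.0505 to 0.0985), and with clock covariates (0.325).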

How the data were processed

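Total RNA of mouse cornea was measured in 15 libraries, which were grouped by the genotype, age and replicate number in their titles. Per the labels' protocols, ribosomal RNA was depleted and strand-specific single reads of 75 bases were sequenced. The deposited values are whole-number counts. Exon reads were summed by gene identifier, per the file headers, with featureCounts 2.0.1, strand setting 2 and GENCODE mouse release 28, which is on GRCm39. The submitters' processing notes name mm10 and DESeq2. The aligner, not given in the sources used here, could not be checked. Symbols matched 52081 of 55357 identifiers (94.1%), and exon sharing was read from the deposited exon coordinates.

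CPM used TMM-adjusted library totals. Genes kept by filterByExpr (15770, of which 78 members) entered 1 edgeR 4.0.16 quasi-likelihood fit (R 4.3.3, robust, 1 mean per group, 11 residual degrees of freedom). Adjusted p-values are Benjamini-Hochberg values over the whole table of tested genes (threshold 0.05), and errors after fold changes are SE. Isoform ratios were tested by exact two-sided permutation of libraries within the other factor (2450 assignments), adjusted over 12 tests, with those of Cox6b2 among them. The procedures were tested on simulated data. The members, lists and tests were chosen with earlier results of these data known. Genes were named by a rule that takes, per complex, the highest and lowest level and the smallest p in each comparison of 2 groups, with the isoform pairs and the called or smallest-p genes of each list. Ndufs5, Cox4i1, Ndufv3 and the genes counted without overlap were named after their values were seen. Alternatives were DESeq2 size factors, upper-quartile factors, the DESeq2 1.42.0 Wald test, limma 3.58.1 voom with sample weights, no filter, a mean of at least 1 CPM, a replicate block, clock covariates, a fit of the 2 groups alone, exclusion of libraries with rod transcripts, and each library left out.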

Additional observations from a re-analysis of the deposited data

Results flagged for a closer look

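In 90 groups of 4 libraries examined, 5 had 1 library far from the rest by Dixon's 95% criterion, where chance gives about 1 in 20. Ndufa4 was at 124.8 CPM in OPA1+/- at 3 months replicate 1, against 163.2 to 169.2 CPM in the rest of that group, and Cox7a2 was at 36.4 CPM in the same library, against 42.8 to 43.0 CPM. Atp5c1 was at 63.46 CPM in OPA1+/+ at 3 months replicate 4, against 73.15 to 74.95 CPM. Cox6c was at 36.06 CPM in OPA1+/+ at 3 months replicate 3, against 38.92 to 39.13 CPM. The score of the mtDNA-encoded subunits was -0.304 in OPA1+/+ at 3 months replicate 4, against 0.085 to 0.117.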

How the results depend on the processing

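The count of members called was 0 in every comparison run under the 25 alternatives, 15 of which left out 1 library. The fit of the 2 groups alone covers only the comparisons of 2 groups, and the other alternatives cover all 7. Adding the replicate number as a block also called 0 members in each comparison. Libraries with the same number correlated at -0.139 to 0.232 (median 0.012, 2 of 21 pairs over 0.1). No pairing by number was visible in these values, and the labels do not say whether the numbers stand for shared handling. With the block 3 genes of the whole table were called for age in OPA1+/- (13 without it). For age in OPA1+/+ 0 were called with it (8 without it, 1504 at an unadjusted p under 0.05), and Egln3 had an adjusted p of 0.136. With the block Ndufa4l2, averaged over ages, had 0.69 (adjusted p = 0.0591). Vegfa (0.65, adjusted p = 0.0240) and mt-Co1 (-0.19, adjusted p = 0.0459) were called in the same comparison by edgeR. Of the 7 mtDNA-encoded subunits, 5 and 4 were below 0 at 3 and 6 months with the block. With clock covariates Ndufb10 turned to -0.151 (genotype at 6 months) and Atp5g1 to 0.019 (age in OPA1+/+), and the cause was not tested. The isoform ratios past the threshold for genotype numbered 1 to 2 when single libraries were left out. The second of these was that of Cox6b2, whose test is not given above. Isoform ratios past the threshold for age numbered 0 to 1 with single libraries left out, and 0 without the libraries with rod transcripts. At 3 months the adjusted p of Opa1 was 0.0515 with the block, 0.0557 without the libraries with rod transcripts, 0.057 in a fit of the 2 groups alone, 0.218 with clock covariates, 0.141 without replicate 1 of OPA1+/+, and 0.0618, 0.0909 and 0.0667 without replicates 2, 3 and 4 of OPA1+/-, at log2 fold changes of -0.42 to -0.37. With clock covariates the Opa1 calls at 6 months (-0.55) and averaged over ages (-0.47) and that of Ndufa4l2 (0.74, averaged over ages) were also lost. Depth limits the isoforms with under 50 counts per library, Cox6b2, Cox7a1 and Ndufa4l2.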
